A study of Mus musculus with 3 samples.

Results

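PU.1 peaks were read at 8 leukocyte integrin genes of the mouse, Itgam, Itgax, Itgal, Itgad, Itgb2, Itga4, Itgb7 and Itgb1, which were chosen by name from 21883 protein-coding genes. A peak belonged to a gene when it overlapped the gene's RefSeq span on mm10 (GRCm38) or the 20 kb on either side, here called the gene's window. The peaks come from ChIP-seq, which sequences the DNA that an antibody pulls down with a chromatin protein. 2 libraries were made with a rabbit polyclonal antibody to PU.1 from i660BM pro-B cells, a C57BL/6 line with a doxycycline-inducible PU.1 system, after 24 h in 70 ng/ml doxycycline. A further library was input DNA of the same cells, labelled with no treatment. No peak list of its own is used here, and whether it served as control for the peaks is not stated. The PU.1 libraries are called replicate 2 and replicate 3, after their titles. Both are induced, so peaks of uninduced cells were not analysed here, and nothing says that the libraries came from separate cultures. All libraries come from a single cell line, and the sources used here do not name the promoter of its construct. No RNA was measured, so neither the pro-B identity of the cells nor the level of any integrin could be checked.

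Integrins are adhesion receptors made of an alpha and a beta chain, which bind ligands on other cells or in the matrix when signals inside the cell switch them on. The beta-2 chain, encoded by Itgb2, pairs with the alpha chains of Itgal (LFA-1, used by most leukocytes to hold on to ICAM proteins), Itgam (Mac-1, of macrophages and neutrophils), Itgax (a marker of dendritic cells) and Itgad. The alpha-4 chain of Itga4 pairs with the beta-1 chain of Itgb1 to form VLA-4, which holds B cell precursors to VCAM-1 on bone marrow stroma, or with the beta-7 chain of Itgb7, which guides lymphocytes to the gut. PU.1, an ETS factor that binds around a GGAA core, is known as an activator of Itgam and Itgb2 in myeloid cells.

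Replicate 2 held 74494 peaks and replicate 3 held 6169. The merged list of the series held 49385 intervals. At the integrin genes lay 48 distinct replicate 2 peaks, 7 distinct replicate 3 peaks and 41 merged intervals. Each peak carries the authors' caller score, which is taken to be 10 times the negative log10 of the peak's p-value, as MACS 1.4.1 writes it. It runs from 70 upward within each list and is compared only within a list. Values of 3100 or more lie at the top of its range and cannot be ranked with confidence. Replicate 2 had 2656 such peaks. Read depth is unknown, so a missing replicate 3 peak does not show that PU.1 was absent.

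Of the 8 integrin genes, 5 have an entry in RefSeq's promoter table (GRCm38.p6), which gives the 250 bases before and the 50 bases from a transcription start. They are shown because a replicate 2 peak covered all 300 bases of 3 of them, Itga4, Itgb7 and Itgb1, while no peak of either library touched those of Itgam and Itgax. A replicate 3 peak touched 1 of the 5, that of Itga4. Over all 32851 promoters of the table, a replicate 2 peak touched 27.5% and a replicate 3 peak 2.23%. Capitals mark GGAA, the ETS core, on either strand (TTCC on the strand shown), together with the longer motifs GAGGAA and GAGGAAGT that contain it. GAGGAAGT is a strong PU.1 site.
Itga4 promoter, chr2:79255176-79255475, plus strand: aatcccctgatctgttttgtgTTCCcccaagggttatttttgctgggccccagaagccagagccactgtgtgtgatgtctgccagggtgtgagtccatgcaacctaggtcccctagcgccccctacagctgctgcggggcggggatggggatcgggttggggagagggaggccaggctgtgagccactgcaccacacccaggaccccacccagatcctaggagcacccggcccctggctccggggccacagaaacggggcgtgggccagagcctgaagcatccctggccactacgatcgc
Itgb7 promoter, chr15:102231886-102232185, minus strand: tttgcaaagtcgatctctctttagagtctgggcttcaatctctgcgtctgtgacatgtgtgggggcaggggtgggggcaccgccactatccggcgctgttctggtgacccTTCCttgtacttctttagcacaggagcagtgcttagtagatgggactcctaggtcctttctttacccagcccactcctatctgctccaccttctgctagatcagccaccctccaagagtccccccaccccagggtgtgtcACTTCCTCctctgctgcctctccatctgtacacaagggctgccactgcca
Itgb1 promoter, chr8:128685404-128685703, plus strand: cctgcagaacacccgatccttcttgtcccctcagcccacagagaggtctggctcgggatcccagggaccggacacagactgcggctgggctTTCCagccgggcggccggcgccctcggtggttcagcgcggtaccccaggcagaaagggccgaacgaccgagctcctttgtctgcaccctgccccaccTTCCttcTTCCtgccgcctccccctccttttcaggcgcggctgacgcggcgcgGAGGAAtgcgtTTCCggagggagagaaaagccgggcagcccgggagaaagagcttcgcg
Itgam promoter, chr7:128062390-128062689, plus strand: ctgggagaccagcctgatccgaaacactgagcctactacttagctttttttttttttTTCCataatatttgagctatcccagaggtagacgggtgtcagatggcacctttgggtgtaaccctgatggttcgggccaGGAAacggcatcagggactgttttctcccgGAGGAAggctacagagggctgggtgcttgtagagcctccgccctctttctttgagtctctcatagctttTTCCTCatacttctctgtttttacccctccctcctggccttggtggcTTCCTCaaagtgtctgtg
Itgax promoter, chr7:128129300-128129599, plus strand: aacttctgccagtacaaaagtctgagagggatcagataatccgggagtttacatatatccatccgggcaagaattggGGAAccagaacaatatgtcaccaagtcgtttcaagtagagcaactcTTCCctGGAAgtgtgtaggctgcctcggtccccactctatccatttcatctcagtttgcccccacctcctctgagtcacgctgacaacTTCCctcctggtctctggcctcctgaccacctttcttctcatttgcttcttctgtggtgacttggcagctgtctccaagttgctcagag

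The Itga4 promoter, which had the strongest peak over it, held 1 GGAA core and no GAGGAA. The Itgam promoter, with no peak, held 3 copies of GAGGAA, which start 84 and 15 bases before and 33 bases into the transcript. GAGGAAGT was found once, in the Itgb7 promoter, on the opposite strand from the first base of the transcript. Of all promoters in the table, 3.20% held GAGGAAGT, 28.3% held GAGGAA and 96.0% held GGAA. GAGGAAGT was in 21.2% of the 732 promoters under a replicate 3 peak, in 5.37% of the 9024 under a replicate 2 peak and in 2.38% of those without one. A match is a description of the letters and no measured site, and the peaks are wider than the promoter window.

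Peaks of both libraries were found at 6 of the 8 genes. Itgam, Itgax, Itgad, Itgb2, Itga4 and Itgb7 each had at least 1 replicate 3 peak (75.0%, against 24.1% of all protein-coding genes with the same rule). Itgal and Itgb1 had none. In replicate 2 all 8 genes had a peak, beside 84.2% of all protein-coding genes, so that count says little about integrins. The merged list reached 7 of 8 (87.5%, against 76.1%), Itgb1 being the exception. A region where peaks of both libraries overlap by at least 1 bp is called shared below, and 6 of 8 genes had one (75.0%, against 24.2%). Members are long genes, with a median window of 77.2 kb against 57.2 kb for all protein-coding genes. Among the 7604 protein-coding genes whose windows lie in the members' range of 57.4 to 118 kb, 26.6% had a shared region, 26.5% a replicate 3 peak, 90.5% a replicate 2 peak and 83.7% a merged interval. The members were picked with earlier results known, and their 3 chromosome 7 windows overlap, so these shares are a description with no test.

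**Figure D1:**
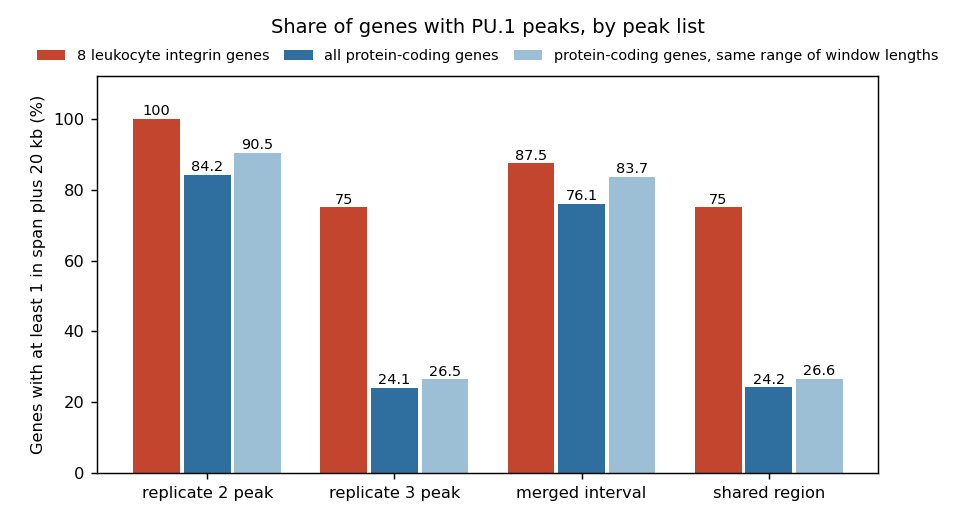
Bars give the percentage of genes with at least 1 peak in span plus 20 kb for the 8 leukocyte integrin genes, for all protein-coding genes and for protein-coding genes with windows of the same range of lengths. The integrin genes stand at 75.0% for replicate 3 peaks and shared regions, against 24.1% and 24.2% of all protein-coding genes, and differ less in replicate 2 (100% against 84.2%).

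Peak density varied among the 8 genes. The median gene of the family had 8.78 replicate 2 peaks per 100 kb of window, against 4.05 for all protein-coding genes. Itgb2 was the densest with 11.9 per 100 kb, a density reached or passed by 5.98% of protein-coding genes. These densities count every peak of a window, also those with another gene nearest, as most of the Itgb2 peaks have. Itgam had 11.5 (6.92% of genes) and Itgad 11.2 (7.69%). Itgal, Itgb7 and Itgax had 8.86, 8.71 and 8.18. Itga4 had 5.10 and Itgb1 2.27, a density that 68.3% of protein-coding genes reach. Spans of the members, 326 kb in all, held 8.28 peak centres per 100 kb, against 3.27 over all protein-coding genes. The members' flanks held 7.29, against 4.16 over all protein-coding genes. These flank values do not cover like sequence. Flanks of the members include parts of neighbouring genes, while those of all protein-coding genes leave out every protein-coding span.

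**Figure D2:**
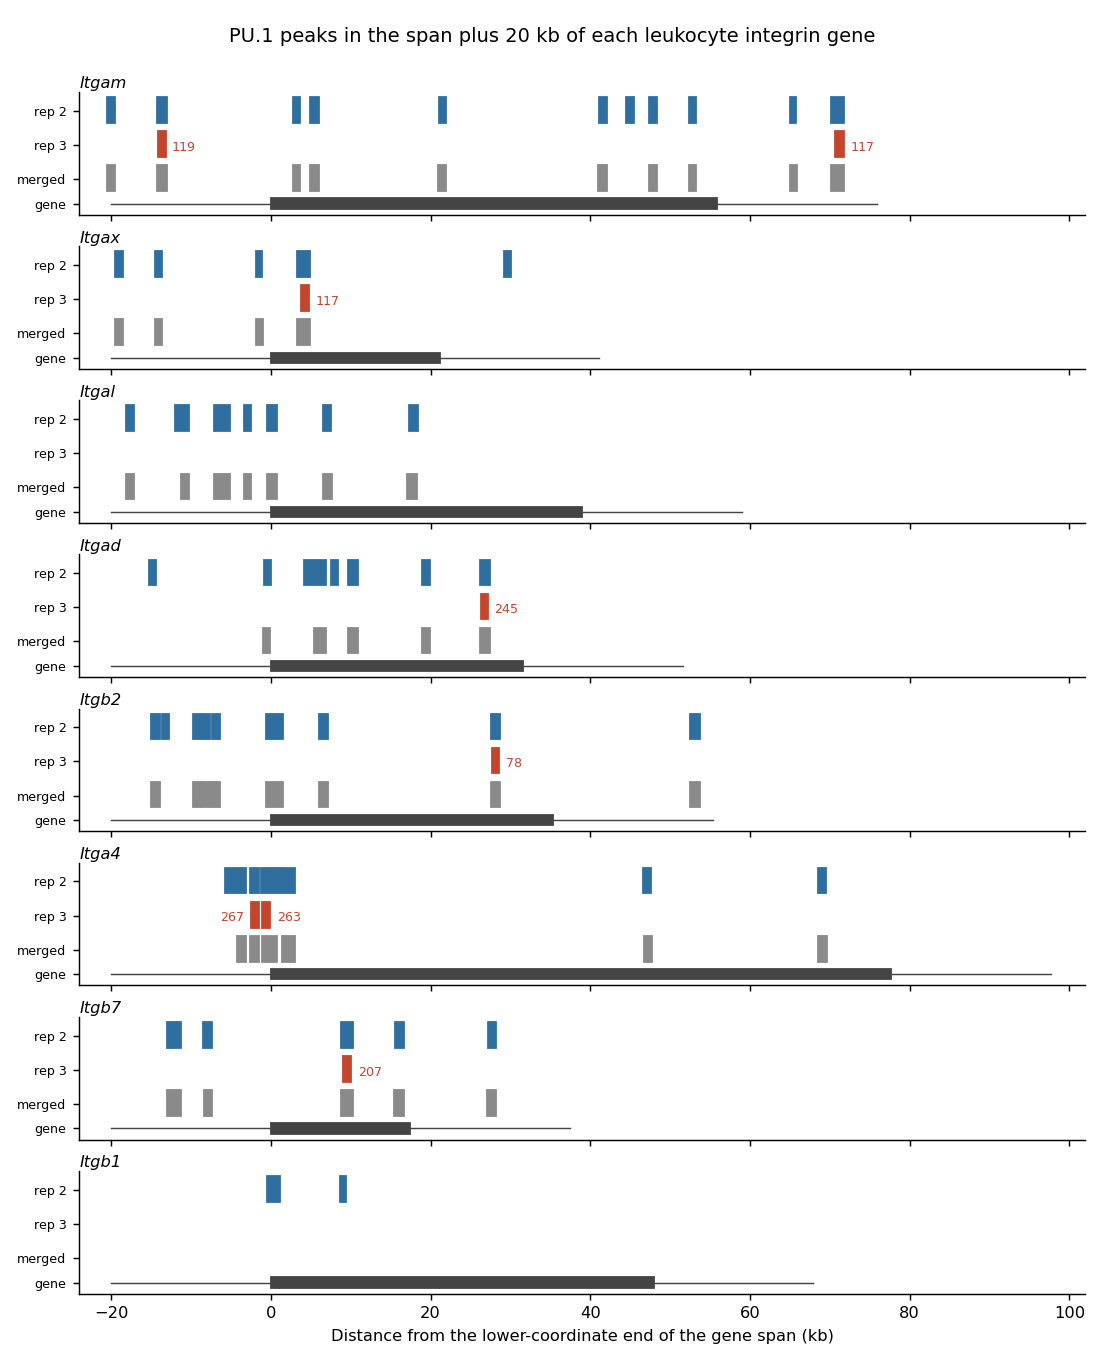
For each gene, bars show the peaks of replicate 2, the peaks of replicate 3 with their scores, and the merged intervals, by distance in kb from the lower-coordinate end of the gene span (dark box), with a thin line for the 20 kb flanks. Replicate 3 peaks stand at 6 genes, and Itgb1 has 2 replicate 2 peaks and nothing else.

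Itgam, Itgax and Itgad, 3 of the beta-2 partner genes, lie side by side on chromosome 7. Their windows join into a single stretch of 183 kb (chr7:128042640-128225504) that held 19 replicate 2 peaks and 3 replicate 3 peaks. The 3 shared regions of the stretch were spread along it, 84.6 kb and 67.2 kb apart. One lay before Itgam, one in Itgax and one in Itgad. Of the replicate 2 peaks, 4 counted for both Itgam and Itgax and 1 for both Itgax and Itgad, so the genes' counts are not independent.

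Itgam (chr7:128062640-128118491), whose product gives macrophages and neutrophils their grip on complement-coated particles, had 11 replicate 2 peaks. Its best peak was not in the gene. It lay 13.6 kb before the transcription start, at chr7:128048370-128049638, with a score of 3065 in replicate 2 and 119 in replicate 3. Inside the gene, 3.24 kb after the start, a replicate 2 peak scored 1903 and had no replicate 3 peak. The other 6 peaks inside the span scored from 85.0 to 772. The second replicate 3 peak in the Itgam window lies in Itgax and is described there.

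Itgax (chr7:128129526-128150657) encodes the alpha chain by which dendritic cells are commonly recognised. Its shared region lay inside the gene, 4.04 kb after the start, at chr7:128132766-128134410, and scored 2385 in replicate 2 and 117 in replicate 3. The other 4 replicate 2 peaks of the window scored 392 or less, and 2 of them lie inside Itgam. A peak 1.55 kb before the start scored 145.

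Itgad (chr7:128173933-128205504) encodes a further beta-2 partner, known from macrophages. It held a replicate 2 peak with a score of 3219 at chr7:128200163-128201371, in the range that cannot be ranked against the 3100 of Itga4 and Itgb7, and a replicate 3 peak of 245 within it. The region lay 26.8 kb from the lower-coordinate end of the gene and 4.74 kb from the higher one. A replicate 3 score this high was found in the windows of 6.60% of protein-coding genes. Nearer the lower end, 4 replicate 2 peaks stood within 6.73 kb (chr7:128178070-128184795), and 2 of them scored 1306 and 1258 without a replicate 3 peak. The long non-coding RNA genes Gm39091 and 4931431B13Rik overlap Itgad, and peaks inside them cannot be given to one gene.

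Itgal (chr7:127296139-127335137), the alpha chain of LFA-1, lies 728 kb from Itgam and shares none of its peaks. Its 7 replicate 2 peaks all lay toward the lower-coordinate end, the farthest 17.8 kb into the gene. The best scored 1602 and lay 6.15 kb outside that end, at chr7:127288978-127290994. The peak across the end itself, chr7:127295712-127296903, scored 1017. Neither had a replicate 3 peak. All 7 replicate 2 peaks were in the merged list.

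Itgb2 (chr10:77530329-77565708), the beta chain that all 4 of these alpha chains need, had 9 replicate 2 peaks. The strongest lay inside the gene at chr10:77557914-77559046, 28.2 kb from the lower-coordinate end, and scored 1991. Its replicate 3 peak scored 77.7, close to the lowest score of that list, and the centres of both peaks fell on the same base (0 bp apart). A broad replicate 2 peak of 2095 bp lay across the lower-coordinate end (chr10:77529747-77531841) with a score of 1887, hardly below that of the shared one, and had no replicate 3 peak. Outside that end, 5 peaks between chr10:77515365 and chr10:77523946 scored from 95.6 to 1201. For all 5 the nearest protein-coding gene by distance to the span was Fam207a, and the peak at the other flank lay in Pttg1ip.

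Of the alpha-4 integrin genes, Itga4 had its strongest peaks at the start, Itgb7 had them inside the gene and Itgb1 had weak peaks alone. Itga4 (chr2:79255426-79333114), the alpha chain that both beta chains pair with, had 4 replicate 2 peaks in a run of 8.77 kb around its transcription start, with gaps of at most 2 kb, and 2 of these were shared. The peak over the start, chr2:79254248-79256572, scored 3100 in replicate 2. The replicate 3 peak within it scored 263 and ended inside the promoter, of which it covered 185 of 300 bases. The other shared region, centred 1.99 kb before the start at chr2:79252867-79254001, scored 2554 in replicate 2 and 267 in replicate 3. That was the highest replicate 3 score at any of the 8 genes, and 5.74% of protein-coding genes had one as high. Far inside the gene, peaks 47.1 and 69.0 kb after the start scored 828 and 260 in replicate 2 and had no replicate 3 peak.

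Itgb7 (chr15:102215994-102233405), the beta partner in gut homing, had its shared region inside the gene, 6.38 kb after the start, at chr15:102224802-102226317. It scored 3100 in replicate 2 and 207 in replicate 3. The replicate 2 peak over the promoter was far weaker at 265 and had no replicate 3 peak. The remaining 3 replicate 2 peaks of the window lay inside the neighbouring genes Csad, Zfp740 and Rarg, with scores of 314 to 430.

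Itgb1 (chr8:128685654-128733579), the beta chain used in nearly all tissues, stood apart from the others. It had 2 replicate 2 peaks, one across its start (chr8:128685188-128686787) with a score of 118.9 and one 9.02 kb after it with a score of 118.6. Neither had a replicate 3 peak or a merged interval. A replicate 2 score as high as its best was found in the windows of 78.2% of protein-coding genes.

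**Figure D3:**
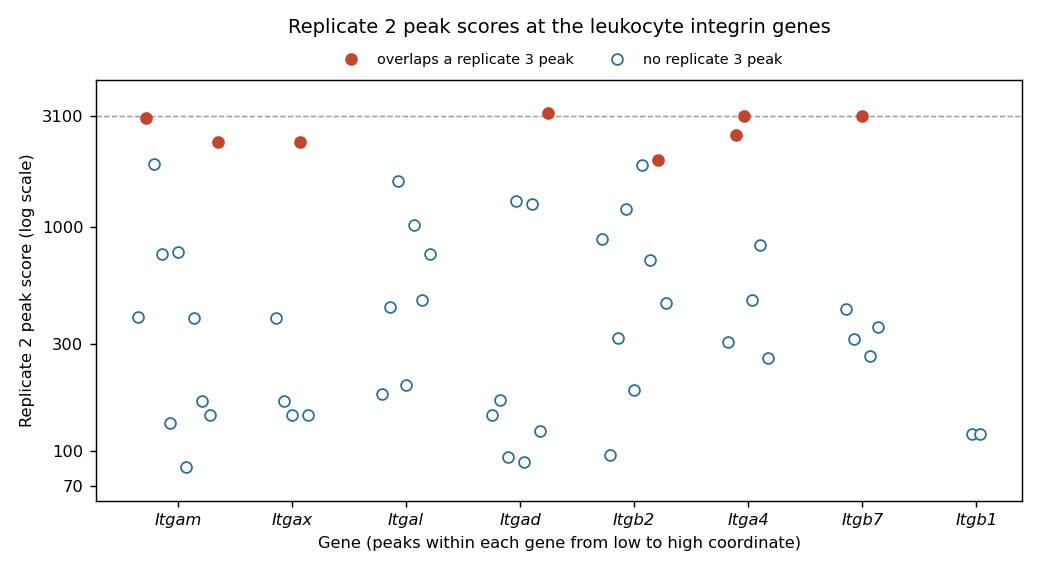
Points are the replicate 2 peaks in each gene's window, by score on a log axis, filled where a replicate 3 peak overlaps, and a dashed line marks the score of 3100. A peak in 2 windows is drawn in both. Filled points lie at 1991 or above, and the highest open point is at 1903 in Itgam.

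The peaks lay across gene ends, inside genes and in the flanks. A replicate 2 peak lay across an end of the span at 5 of the 8 genes, Itgal, Itgad, Itgb2, Itga4 and Itgb1, against 34.1% of all protein-coding genes. Itgb7 is not counted, since its start in the promoter table lies inside its RefSeq span. The replicate 2 peak over that promoter was centred 1.34 kb inside the higher-coordinate end and did not reach it. A replicate 3 peak lay across an end at 0 of 8, against 2.60%. Of the 7 shared regions, 4 lay wholly inside a span, 1 lay across a start and 2 lay outside. For all 7, a member was the nearest protein-coding gene. Of the 48 replicate 2 peaks, 37 had a member as nearest gene and 11 had another gene.

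Whether a peak was shared followed its replicate 2 score. All 6 peaks with scores of 2000 or more had a replicate 3 peak, as did 1 of the 8 from 1000 to below 2000, and none of the 34 below 1000 did. Over all replicate 2 peaks the share was 96.6% from 3000 upward, 69.8% from 2000 to below 3000, 17.5% from 1000 to below 2000 and 0.603% from 500 to below 1000. At 1000 or more, 7 of 14 peaks at the integrin genes were shared (50.0%), close to the 46.3% of all such peaks. Of all 48 peaks 14.6% were shared, against 8.24% of all replicate 2 peaks, and 29.2% scored 1000 or more, against 17.6%. The median score in replicate 2 was 434 at these genes and 232 over the whole list. Of the 48 peaks, 41 overlapped a merged interval (85.4%, against 66.5% of all replicate 2 peaks), and the other 7 scored between 85.0 and 145.

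**Figure D4:**
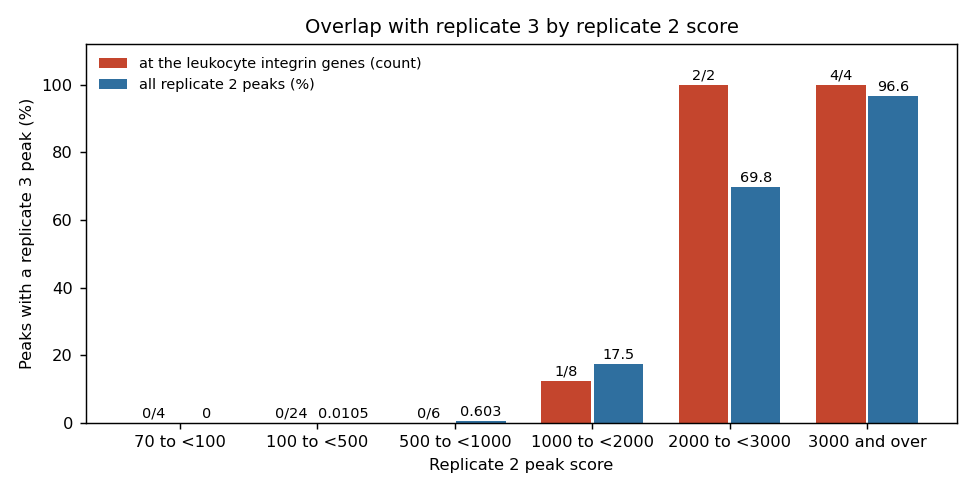
Bars give the percentage of replicate 2 peaks that overlap a replicate 3 peak, by replicate 2 score, at the integrin genes (with counts) and over all replicate 2 peaks. Both rise with the score, to 4 of 4 and 96.6% at 3000 and over.

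Shared regions were chosen by overlap, so the peaks of both libraries had to lie close together in them. The 7 replicate 3 peaks lay wholly inside their replicate 2 peaks, as did 88.4% of all 6169 replicate 3 peaks. The peak centres were 0 to 18 bp apart in 4 regions and 93 bp apart in Itgad, and the wide peaks of Itgax and the Itga4 start gave 259 and 564 bp. Over all replicate 3 peaks the median distance was 54.0 bp, with the middle 50% of values from 23.0 to 141 bp. The order of the scores differed between the lists. In replicate 3 the Itga4 regions came first (267 and 263), then Itgad, Itgb7, the region before Itgam, Itgax and Itgb2. The region before Itgam, at 3065 in replicate 2, ranked 2716 among the 74494 peaks of that list. Its replicate 3 peak ranked 3597 among the 6169 replicate 3 peaks, below the median score of 136 for that list. With 1 score per library there is no error for these values, so neighbours in the order are not told apart.

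Other genes of integrin biology were read with the same window. Their window lengths were not matched to those of all protein-coding genes, and a longer window is more likely to hold a region. Of 19 genes known to regulate integrin activation, in either direction, 13 had a shared region (68.4%, against 24.2% of all protein-coding genes). The 13 include Sharpin and Itgb1bp1, whose products are known as inhibitors of integrin activation. Rap1a, the small GTPase that relays the signal to the integrin, had a region that overlaps the gene, with scores of 3100 and 671. Apbb1ip, which encodes the Rap1 partner RIAM, had 2 regions, the better at 3100 and 280. Fermt3, the gene of the kindlin that blood cells need for integrin activation, had one at 3100 and 239, and Cytip, whose product is known to reduce adhesion through LFA-1, one at 3132 and 199. Of 16 genes that signal from bound integrins, 7 had one (43.8%), among them Vcl at 231 in replicate 3, Ptk2b at 185, Nedd9 at 172 and Parvg at 266, whose region lay 19.7 kb outside its span.

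Of 18 other integrin chains 7 had a shared region (38.9%). They include Itga11 at 249, Itgav at 184 and Itga6 at 165 in replicate 3, and Itga5 at 479, whose region is nearer to Zfp385a. Their median density of 4.08 replicate 2 peaks per 100 kb was near the 4.05 of all protein-coding genes. Ligand genes had one at 5 of 16 (31.2%). Icam1, the ligand of LFA-1 and Mac-1, had one that overlaps the gene at 3100 and 405, and Icam4 and Icam5 count through the same region. The region counted for C3, a complement gene whose product Mac-1 binds in cleaved form, scored 238 in replicate 3 and lay 19.8 kb away, nearest to Trip10. All these shares are set beside that of all protein-coding genes without a test.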

How the data were processed

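Reads of the PU.1 ChIP-seq libraries were processed by the authors, who per the submitters' processing notes used Trim Galore, Bowtie and MACS 1.4.1 with mm10. The sources used here do not give versions of Trim Galore and Bowtie, nor say whether the input served as control. The authors deposited 1 peak list per library, with a score per peak, and a merged list whose score is 0 in every row, used for positions alone. The sources used here do not say how it was merged. Read depth is unknown.

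Gene spans came from RefSeq (GRCm38.p6), without strand or exons. Strand and start came from RefSeq's promoter table for the 5 genes it holds. Distances run from peak centres. Coordinates are 1-based. Overlap was counted from 1 bp in Python 3.11.15 with pandas 2.3.3, and the overlap code was tested on simulated intervals. Shares over all 21883 protein-coding genes with the same window serve as background. No test was run, since members, lists and motifs were chosen with earlier results of these data known. All 8 members are named. Up to 4 genes per other list are named, by replicate 3 score. The promoters of Itgam and Itgax and the GGAA motif were added after their values were seen. Alternatives were windows of 0, 5 and 50 kb, a score of at least 100, 50% reciprocal overlap, nearest gene only, and either library alone.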

Additional observations from a re-analysis of the deposited data

How the results depend on the processing

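All 22 alternative values for the number of integrin genes with a peak stayed within 1.5 times the main count. Shared regions were found at 5 of 8 genes with the span alone (12.0% of all protein-coding genes), with 5 kb flanks (15.3%) or with scores of at least 100 (18.2%), and at 6 with 50 kb flanks (37.8%). Replicate 3 peaks themselves overlapped the span alone at 4 of 8 genes (11.7% of all protein-coding genes). At Itga4 only the replicate 2 part of the shared region reaches the span. Using either library alone gave 6 to 8 genes and 7 to 48 distinct regions, against 6 genes and 7 regions that need both. With the span alone there were 29 distinct replicate 2 peaks, 4 replicate 3 peaks and 23 merged intervals, against 48, 7 and 41. With 50 kb flanks there were 11 replicate 3 peaks and 11 shared regions. Itgam had a shared region from 20 kb flanks on and 0 with the span or 5 kb. Itgb2 had 0 with scores of at least 100. With 50% reciprocal overlap 1 of the 2 Itga4 regions was left. The nearest-gene count of distinct peaks was added after the data were seen. No paired analysis was possible because the 2 PU.1 libraries belong to 1 group and no other group has a peak list. Read depth is unknown, so what a site without a replicate 3 peak shows is limited.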
